A study of Drosophila melanogaster with 27 samples.

Results

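Messenger RNAs of 9 genes of mRNA decay and translational repression were followed in Drosophila heads and in the RNA that came down with AGO1, the Argonaute protein that carries microRNAs in flies. The genes were me31B, DCP1, Ge-1, twin, Pop2, pAbp, bel, Fmr1 and Rm62. They were found by exact gene symbol in the array annotation and had 10 probe sets, 2 of them for Fmr1, out of 18769 probe sets that were not controls and 11982 named genes. All 10 probe sets passed the filter on low values, a log2 value above 4 in at least 3 arrays.

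A microRNA bound to Argonaute represses its target through GW182 (gw in flies), which recruits the CCR4-NOT deadenylase and displaces the poly(A)-binding protein. Removal of the poly(A) tail is followed by removal of the cap and decay from the 5′ end, while helicases and RNA-binding proteins of cytoplasmic granules hold mRNAs back from translation. The proteins of these 9 genes act in or beside this route. The arrays measured the mRNAs that encode them, not the proteins.

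Adult flies were kept in 12 h of light and 12 h of dark, and heads were collected at 6 times 4 h apart, in Zeitgeber time (ZT, hours after lights on). RNA of the head extract (INPUT) and of its AGO1 immunoprecipitate (IP) was hybridised to 27 Affymetrix arrays. Wild-type flies gave 11 INPUT and 12 IP arrays, 2 per fraction and time except for 1 INPUT array at ZT3, and a genotype called Tim-Dcr gave single arrays of each fraction, at times ZT3 and ZT15. What the name Tim-Dcr stands for is not in the labels, which also state no sex or age beyond adult and do not say how many heads were pooled; precipitates with a control antibody were not analysed here.

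The values are deposited GCRMA log2 expression values. Wild-type array medians ran from 6.11 to 6.19 for INPUT and from 4.77 to 4.90 for IP, and those of Tim-Dcr were 5.66 and 5.93 for INPUT and 4.34 and 4.54 for IP. IP was therefore compared with INPUT on arrays shifted to a median of 0 each (centred arrays), so that 0 means the position of the typical probe set. The mean of 6 neuron and photoreceptor markers, of 10 listed, ran from 10.01 to 10.46 in wild-type INPUT and was 10.38 and 10.56 in Tim-Dcr INPUT. Markers of other body parts were also high in wild-type INPUT: the means were 11.03 to 11.83 for 11 of 11 testis genes, 9.24 to 9.91 for 13 of 15 genes of the male tract, and 9.11 to 10.07 for 8 of 12 midgut genes. In Tim-Dcr INPUT at ZT3 and ZT15 they were 8.87 and 4.71 for testis, 5.96 and 4.46 for the male tract, and 6.13 and 5.27 for midgut.

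**Figure D1:**
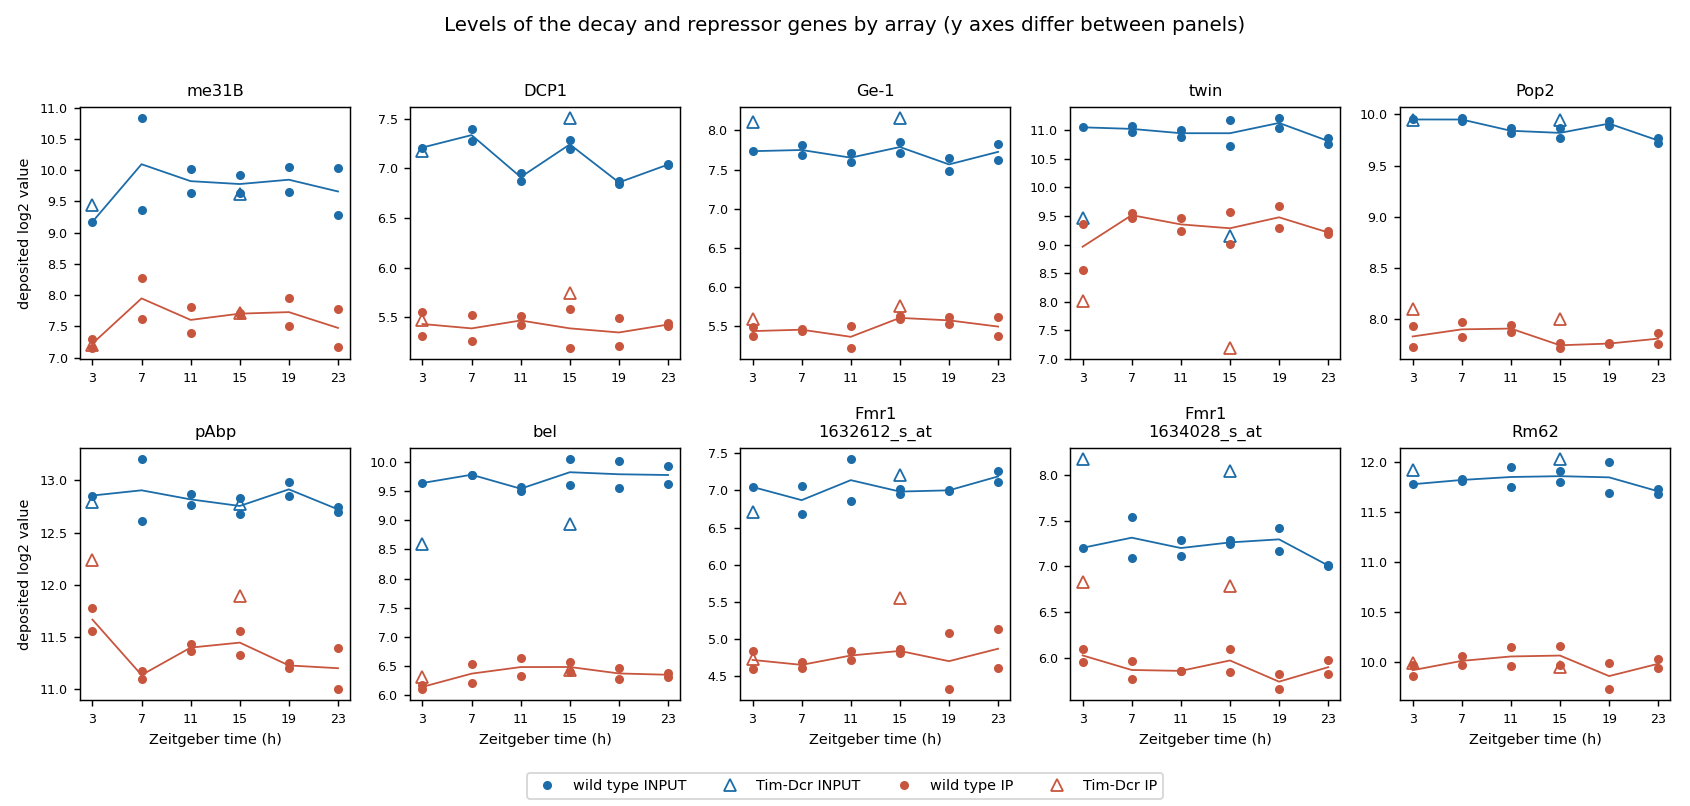
Deposited log2 value (y) of each probe set against Zeitgeber time in hours (x). Circles are wild-type arrays, lines their means, triangles Tim-Dcr arrays, blue INPUT and red IP. In twin both Tim-Dcr INPUT arrays, at 9.47 and 9.14, lie below every wild-type INPUT array, and in me31B the ZT7 INPUT replicates lie at 9.35 and 10.83.

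The INPUT arrays addressed whether these mRNAs cycle in the head. No member was called rhythmic in INPUT by limma's F test on a 24 h harmonic, against 0.593% of all tested probe sets, and none was called in IP, against 0.928%. None had an unadjusted p under 0.05 in either fraction, and the adjusted p values were 1.00 in INPUT and 0.998 in IP. Tested for a rhythm of IP minus INPUT, limma called no probe set (0.0%), while 174 of 15517 probe sets, none of them a member's, had an unadjusted p under 0.05. The INPUT test found 67% of simulated rhythms of 2-fold size and 94% of those of 4-fold size. The test of IP minus INPUT found 47% and 85%. Changes below 2-fold could thus often go undetected.

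Among the decapping-side members the wild-type INPUT arrays varied most for me31B, with a standard deviation of 0.47 over 11 arrays, against 0.19 for DCP1 and 0.11 for Ge-1. me31B, a DEAD-box helicase of the DDX6 family that activates decapping and represses translation, was at 9.17 at ZT3, at 9.35 and 10.83 at ZT7, at 10.01 and 9.63 at ZT11, at 9.63 and 9.93 at ZT15, at 9.65 and 10.05 at ZT19, and at 9.29 and 10.03 at ZT23 in wild-type INPUT. The 2 arrays of ZT7 were thus farther apart than the means of any 2 times. Its fitted peak-to-trough range was 0.32 with a standard error (SE) of 0.33 on the log2 scale, and 0.35 in IP with an SE of 0.31.

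DCP1, the cofactor of the decapping enzyme Dcp2, was at 7.21 at ZT3, at 7.40 and 7.28 at ZT7, at 6.95 and 6.88 at ZT11, at 7.29 and 7.20 at ZT15, at 6.84 and 6.87 at ZT19, and at 7.04 at ZT23 in both replicates. ZT11 and ZT19 were the lowest times, with a higher ZT15 between them, and the 24 h harmonic had a range of 0.27 (SE 0.15, unadjusted p in limma 0.210). Ge-1, the scaffold that joins DCP1 to other decapping factors, stayed between 7.48 and 7.86 in INPUT, with a median of 7.71.

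Both catalytic subunits of the CCR4-NOT deadenylase kept within narrow ranges in INPUT. twin, the CCR4 nuclease, ranged from 10.72 to 11.21 with a median of 11.01, and Pop2, the CAF1 nuclease, from 9.72 to 9.97 with a median of 9.87. pAbp, the cytoplasmic poly(A)-binding protein, ranged from 12.61 to 13.20 with a median of 12.83. The fitted harmonics of all 3 spanned between 0.05 and 0.09 on the log2 scale.

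Among the other RNA-binding proteins and helicases, bel, the fly DDX3, lay between 9.51 and 10.05 with a median of 9.64, and Rm62, the p68 helicase, between 11.68 and 12.00 with a median of 11.80. Fmr1, whose human counterpart is lost in fragile X syndrome, was read at 6.68 to 7.42 by probe set 1632612_s_at and at up to 7.53, with a median of 7.20, by probe set 1634028_s_at. The fitted INPUT ranges of these 4 probe sets lay between 0.11 and 0.17.

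IP and INPUT were compared to ask whether these mRNAs were over- or under-represented with AGO1. On centred arrays 7 of the 9 probe sets other than that of bel, which was chosen for its low value, were lower in IP and none was higher, where 29.6% of all tested probe sets were called lower and 29.7% higher. The median over all tested probe sets was 0.01. As deposited, without centring, all 10 were lower, but so were 93.1% of all tested probe sets, whose median was -1.31. Fold changes below are relative to the array median, and material that binds without AGO1 cannot be told apart from AGO1-bound RNA.

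bel stood lowest and is described without a test. In INPUT its centred values ran from 3.36 through a median of 3.53 to 3.90, and in IP from 1.31 to 1.81 with a mean of 1.54. The fractions did not overlap, and the lowest INPUT array lay 1.55 above the highest IP array. Averaged over the 6 times, IP minus INPUT was -2.05 (SE 0.08), a 4.15-fold lower representation, and only 12 of 15517 probe sets were lower. The 6 times gave -2.18, -2.10, -1.78, -2.00, -2.11 and -2.15 from ZT3 to ZT23. 

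The 5 genes whose 6 time values lay nearest to those of bel, by root mean square distance, were CG2747 at 0.12, RpL3 at 0.17, Usp32 at 0.18, Bruce at 0.20 and GstE9 at 0.21 on the log2 scale. RpL3 encodes a protein of the large ribosomal subunit, Usp32 a ubiquitin-specific protease, Bruce a large ubiquitin-conjugating enzyme and GstE9 a glutathione transferase. Their centred IP minus INPUT lay between -2.04 and -1.90.

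The decapping-side members were all lower in IP. Ge-1 ran from 1.31 through 1.55 to 1.72 in INPUT and from 0.40 through 0.66 to 0.84 in IP, without overlap, and fell by 0.90 (SE 0.06, limma adjusted p 2.76e-09). me31B ran from 3.06 through 3.52 to 4.66 in INPUT and from 2.37 through 2.86 to 3.38 in IP, which overlap, and its difference was -0.80 (SE 0.15, limma adjusted p 2.55e-04). DCP1 ran from 0.70 through 0.93 to 1.25 in INPUT and from 0.41 through 0.60 to 0.79 in IP, also with overlap, and its difference was -0.38 (SE 0.06, limma adjusted p 4.47e-05). 

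Both nucleases of the deadenylase were lower in IP. Pop2 ran from 3.61 through 3.72 to 3.84 in INPUT and from 2.89 through 2.97 to 3.19 in IP, without overlap, with a difference of -0.72 (SE 0.05, limma adjusted p 4.88e-09). twin ran from 4.60 through 4.87 to 5.09 in INPUT and from 3.79 through 4.50 to 4.88 in IP, with overlap, and its difference was -0.37 (SE 0.10, limma adjusted p 0.00525).

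pAbp ran from 6.43 through 6.68 to 7.05 in INPUT, and in IP from 6.10 through 6.54 to just under the INPUT maximum, a wide overlap. Its difference of -0.17 (SE 0.08) missed the threshold at a limma adjusted p of 0.0952. With the replicate numbers as a block it was -0.19 and passed at an adjusted p of 0.0172.

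Rm62 ran from 5.53 through 5.67 to 5.84 in INPUT and from 4.93 through 5.15 to 5.37 in IP, without overlap, and fell by 0.51 (SE 0.06, limma adjusted p 1.55e-06). The probe sets of Fmr1 disagreed. With 1632612_s_at INPUT ran from 0.53 through 0.88 to 1.30 and IP from -0.54 through -0.05 to 0.34, without overlap, a difference of -0.96 (SE 0.11, limma adjusted p 7.55e-07). With 1634028_s_at INPUT ran from 0.85 through 1.09 to 1.38 and IP from 0.79 through 1.05 to 1.33, and the difference was 0.00 in size (SE 0.07, limma adjusted p 0.987). The gap of 0.96 between the probe sets was matched or exceeded in 222 of 915 genes with several tested probe sets (24.3%), whose median gap was 0.50. Apart from bel, which was chosen for its low value, the fractions did not overlap for Ge-1, Pop2, Rm62 and Fmr1 by 1632612_s_at. Of all tested probe sets, 9.46% had every IP array below every INPUT array.

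**Figure D2:**
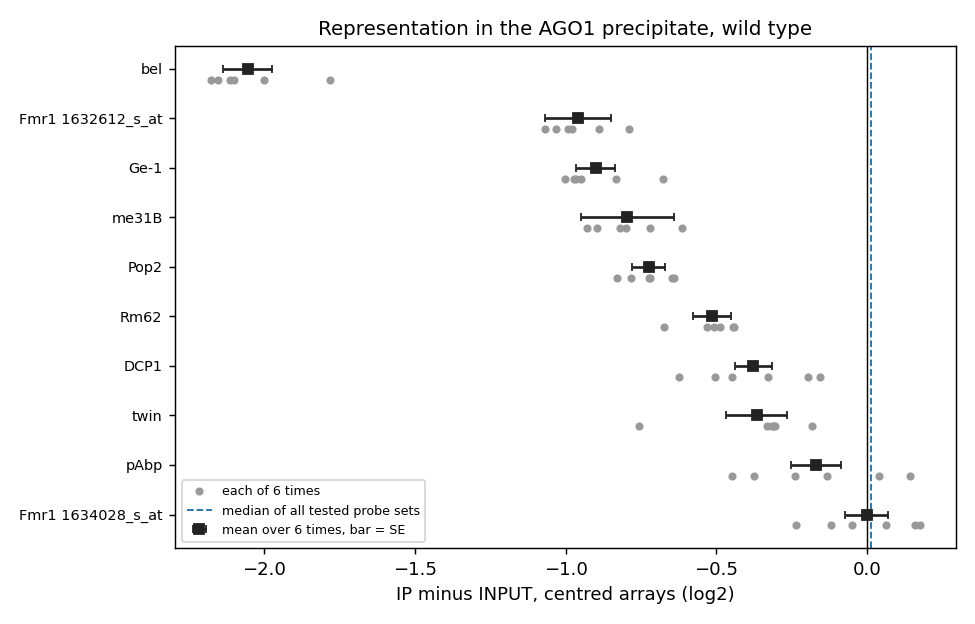
Centred IP minus INPUT in wild type (x, log2) for each probe set (y). Squares are means over 6 times with SE bars, grey points the 6 times, and the dashed line the median of all tested probe sets, 0.01. bel lies at -2.05, apart from the others, which lie between -0.96 and 0.00.

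No change of representation in IP over the day was detected for these genes. limma's F test for a difference of IP minus INPUT between the 6 times called none of the members, against 0.00644% (1 of 15517) of all tested probe sets. How large a change this test can find was not simulated. The smallest unadjusted p among the members was 0.222, for DCP1, whose 6 values were -0.45, -0.63, -0.16, -0.50, -0.20 and -0.33. pAbp, whose values were 0.14, -0.45, -0.13, 0.04, -0.37 and -0.24, changed sign between times, with an unadjusted limma p of 0.360. twin was at -0.76 at ZT3 and between -0.33 and -0.18 at the other times, and the unadjusted limma p was 0.779; ZT3 had 1 INPUT array.

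The mRNAs of other genes of the same routes were read from 6 lists with 95 genes, of which 73 were measured and 72 tested here. In centred IP minus INPUT 25 were higher, 34 lower and 13 not called, with a median of -0.19, where 29.7% of all tested probe sets were higher and 29.6% lower. As deposited 2 were higher and 67 lower, where 93.1% of all tested probe sets were lower. Decapping and 5′ decay held 5 higher and 1 lower of 7, with a median of 0.76. Edc3, an enhancer of decapping, was higher by 2.57 (SE 0.09, limma adjusted p 5.81e-13), and also higher by 1.25 as deposited. Patr-1, the fly Pat1 that bridges decapping factors, was lower, at -1.40 (SE 0.13, limma adjusted p 5.69e-08).

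The 4 measured genes of nonsense-mediated decay were all lower, from Smg6, its endonuclease, at -1.26 to Upf3 at -0.28, with Upf2 at -0.80 and the helicase Upf1 at -0.65. The exosome list had 2 higher and 8 lower of 12, with Ski6, a core subunit, at 0.93 and the helicase Mtr4 at -1.02. Shares over all tested probe sets were 29.7% higher and 29.6% lower. Other deadenylation genes split into 4 higher and 5 lower of 10, with PAN3 at 1.26, Not11 at 1.21, the nocturnin gene cu at 1.03 and PAN2 at -0.58. PAN2 and PAN3, nuclease and adaptor of 1 complex, thus differed in sign on centred arrays.

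Translational repressors and granule proteins had 12 higher and 9 lower of 26, with a median of -0.03. The splicing and translation repressor Sxl was at 1.63, the Smaug protein gene smg at 1.53, the poly(A)-binding protein antagonist Paip2 at 0.91 and gw at 0.86. Other DEAD-box helicases had 2 higher and 7 lower of 13, with mahe at 0.53 and Hel25E at -0.55. Over all tested probe sets 29.7% were called higher and 29.6% lower in this comparison. None of the 72 was called rhythmic in INPUT or in IP, where 0.593% and 0.928% of all tested probe sets were called.

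Tim-Dcr heads were compared with wild type at the same 2 times, on deposited values. In INPUT 2 probe sets were higher and 2 lower, where 32.3% of all tested probe sets were called higher and 17.0% lower. In IP 3 were higher and 1 lower, against 27% higher and 17.0% lower. Both Tim-Dcr arrays lay above every wild-type array in 36.0% of all tested probe sets in INPUT and 26.6% in IP, and below every one in 18.2% and 17.3%. The median of all probe sets was 0.23 in INPUT and 0.17 in IP as deposited, and 0.59 and 0.52 on centred arrays, where members called were 5 higher and 2 lower in INPUT, and 8 higher and 1 lower in IP. The background on that scale was 63.9% higher and 13.2% lower in INPUT, and 59.5% and 11.9% in IP. The INPUT counts and the centred counts include bel, whose wild-type values entered its choice. Tim-Dcr had 1 array per fraction and time, so the spread in these tests came mostly from wild-type arrays, and fewer cells of a type and less RNA per cell cannot be told apart.

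twin had the largest change of the members. Its Tim-Dcr INPUT arrays were at 9.47 at ZT3 and 9.14 at ZT15, and every wild-type INPUT array was at 10.72 or above. The difference was -1.71 (SE 0.26, limma adjusted p 4.56e-05), 3.27-fold lower. In IP the Tim-Dcr arrays were at 8.02 and 7.20 against a wild-type minimum of 8.56, a difference of -1.52 (SE 0.24, limma adjusted p 1.13e-04). On centred arrays twin was lower as well, at -1.35 in INPUT and -1.17 in IP, and its representation in IP relative to INPUT did not pass the test, with a difference of 0.19 (SE 0.35, limma adjusted p 0.811).

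Markers of 3 other body parts moved with twin in Tim-Dcr. All 11 testis genes were lower in both fractions, with medians of -5.20 in INPUT and -4.20 in IP. Of 13 genes of the male tract 12 were lower in each fraction, with medians of -4.18 and -4.05, and of 8 midgut genes 8 were lower in INPUT and 7 in IP, with medians of -3.98 and -4.15. In INPUT 3 of 4 glia and 3 of 5 fat body genes were higher, with medians of 0.81 and 0.27. So were 2 of 6 neuron and photoreceptor genes and 2 of 4 muscle genes, while 1 of 8 tested ovary genes was lower. Over all tested probe sets 32.3% were called higher in INPUT. In IP 1 of 4 glia genes was higher, and 2 of 5 fat body genes were higher and 1 lower. Among wild-type arrays twin followed the mean of the testis list, with Pearson's r of 0.868 in INPUT over 11 arrays (permutation p 3.6e-04, adjusted 0.0048; Spearman's rho 0.855, p 0.00154, adjusted 0.0205). In IP over 12 arrays r was 0.974 and rho 0.993, both with a permutation p of 1e-05, the smallest that 100000 draws can give (adjusted 4e-04). Without the 2 arrays farthest from the median, r was 0.752 in INPUT and 0.974 in IP. These belong to 40 relations of members with testis or ovary markers, chosen after the values were seen; relations with the male tract and midgut lists were not computed. The part of such RNA in the twin difference was not tested.

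Of the 40 relations, 2 in IP over 12 arrays were negative and passed by rho but not by r. DCP1 and the testis markers had r of -0.646 (permutation p 0.0117, adjusted 0.0687; rho -0.748, p 0.00703, adjusted 0.0469), and r was -0.692 without the 2 farthest arrays. pAbp and the ovary markers had r of -0.729 (permutation p 0.00701, adjusted 0.0561; rho -0.769, p 0.00486, adjusted 0.0389), and r was -0.675 without the 2 farthest arrays.

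**Figure D3:**
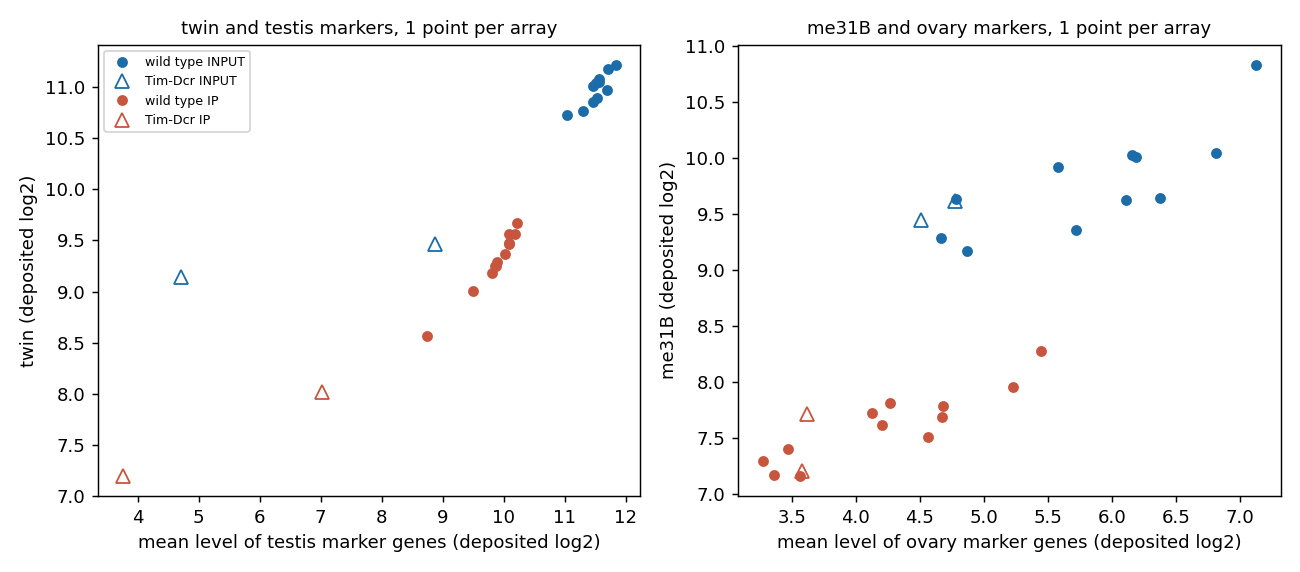
Left, twin (y) against the mean of the testis marker genes (x); right, me31B (y) against the mean of the ovary marker genes (x); all in deposited log2 values with 1 point per array, circles wild type, triangles Tim-Dcr, blue INPUT and red IP. Within each fraction the wild-type arrays climb together in both panels, with r of 0.868 and 0.974 on the left and 0.786 and 0.906 on the right.

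bel was lower in Tim-Dcr INPUT but not in IP. Its INPUT values were 8.60 at ZT3 and 8.94 at ZT15, below the wild-type minimum of 9.51, with a difference of -0.96 (SE 0.17), 1.94-fold lower. The wild-type INPUT and IP levels enter the low IP minus INPUT for which bel was chosen, so both fractions are described without a test. In IP bel was at 6.31 and 6.42, inside the wild-type range of 6.10 to 6.64, and the difference was 0.06 (SE 0.16). Centred, INPUT was still lower, at -0.60, where the median of all tested probe sets was 0.59. Centred IP was at 0.41, under the median of 0.52 over all tested probe sets.

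The gap between IP and INPUT of bel was narrower in Tim-Dcr. Centred IP minus INPUT was -0.90 at ZT3 and -1.21 at ZT15 in Tim-Dcr, against -2.18 and -2.00 in wild type. The difference was 1.01 (SE 0.23), and 1.00 on centred arrays. The wild-type side of this difference is the low value for which bel was chosen, so it is given as a description with no test. Among the members other than bel, none was called for a difference of enrichment, where 0.789% of all tested probe sets were called higher. The size for bel stayed between 0.90 and 1.14 when single arrays were left out. Within wild-type INPUT, bel and the testis markers had r of 0.585 over 11 arrays (permutation p 0.0550, adjusted 0.220; rho 0.545, p 0.0874, adjusted 0.291), and r was 0.492 without the 2 farthest arrays.

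On deposited values Fmr1 was higher in Tim-Dcr by probe set 1634028_s_at and not called by the other. Its INPUT arrays were at 8.17 and 8.05 against a wild-type maximum of 7.53, and its IP arrays at 6.83 and 6.79 against 6.10, so that neither fraction overlapped. The differences were 0.86 in INPUT (SE 0.14, limma adjusted p 7.79e-05) and 0.81 in IP (SE 0.13, limma adjusted p 1.16e-04). By 1632612_s_at the differences were -0.02 in INPUT (SE 0.23, limma adjusted p 0.952) and 0.37 in IP (SE 0.22, limma adjusted p 0.183). On centred arrays its IP difference was 0.72 and called (limma adjusted p 0.0188). The IP median of all tested probe sets on that scale was 0.52, and 59.5% were called higher. After quantile normalization within each fraction its IP difference was 0.64 and called (limma adjusted p 0.0346), and the share over all probe sets is not given here. The INPUT gap between both probe sets was matched or exceeded in 161 of 915 genes with several tested probe sets (17.6%).

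The remaining calls were small. Ge-1 was at 8.11 and 8.16 in Tim-Dcr INPUT, above the wild-type maximum of 7.86, and higher by 0.37 (SE 0.12, limma adjusted p 0.0148). That call was lost without the wild-type INPUT array of ZT3 (adjusted p 0.0783) and without the Tim-Dcr INPUT array of ZT3 (0.0785) or of ZT15 (0.157). pAbp was at 12.24 and 11.89 in Tim-Dcr IP, above the wild-type maximum of 11.77, and higher by 0.51 (SE 0.15, limma adjusted p 0.00982), but not without the Tim-Dcr IP array of ZT3 (adjusted p 0.110) or of ZT15 (0.0684). 

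Pop2 was at 8.10 and 8.01 in Tim-Dcr IP, above the wild-type maximum of 7.97, and higher by 0.26 (SE 0.09, limma adjusted p 0.0274). Its call was lost without the wild-type IP arrays of ZT3 replicate 1 (adjusted p 0.0812) or ZT15 replicate 1 (0.0559), or the Tim-Dcr IP arrays of ZT3 (0.146) or ZT15 (0.176), and with arrays of ZT3 and ZT15 alone (0.135). me31B, DCP1 and Rm62 were not called in either fraction, with differences between -0.02 and 0.20. On centred arrays DCP1 (0.49 in INPUT and 0.55 in IP) and Rm62 (0.52 and 0.33) were called higher in both. The medians of all tested probe sets on that scale were 0.59 in INPUT and 0.52 in IP.

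**Figure D4:**
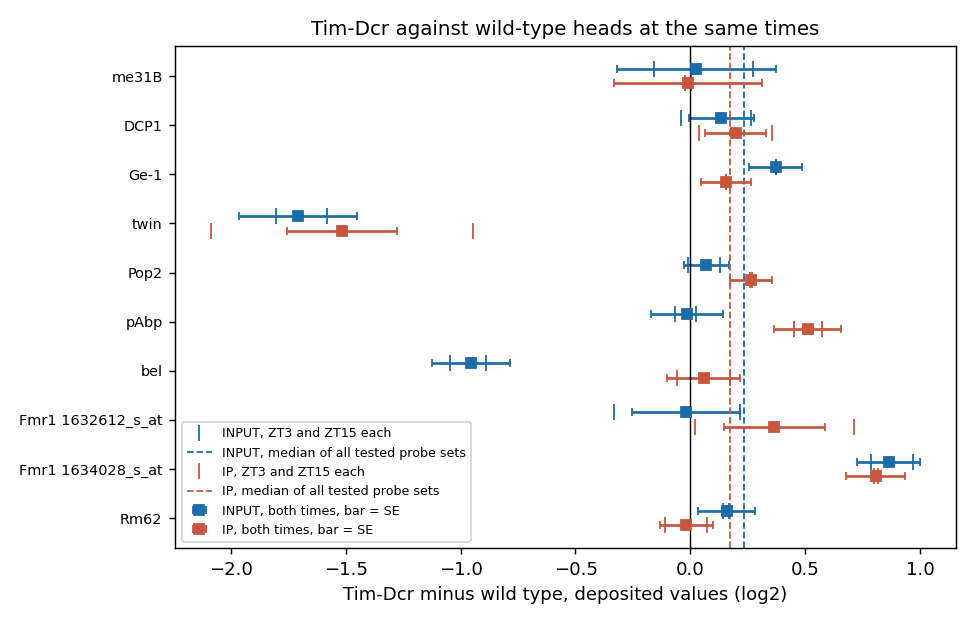
Tim-Dcr minus wild type on deposited values (x, log2) for each probe set (y). Squares with SE bars are both times together, ticks are ZT3 and ZT15 each, blue is INPUT and red IP, and dashed lines are the medians of all tested probe sets, 0.23 and 0.17. twin is low in both fractions, bel in INPUT, and 1634028_s_at of Fmr1 is high in both.

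me31B varied with another marker list. Its deposited level followed the mean of 9 of 10 ovary markers in wild-type INPUT, with r of 0.786 over 11 arrays (permutation p 0.00273, adjusted 0.0273; rho 0.800, p 0.00455, adjusted 0.0389), and r was 0.812 without the 2 farthest arrays. In IP r was 0.906 over 12 arrays (permutation p 1.2e-04, adjusted 0.0024; rho 0.839, p 0.00116, adjusted 0.0205), and 0.824 without the 2 farthest arrays. The list's mean ran from 4.67 to 7.12 in wild-type INPUT and was highest in ZT7 replicate 2, the array with the most me31B. vas, the germ line helicase, was under 4 in all of these arrays. In wild-type IP the list's mean ran from 3.27 to 5.44, and bam, vas and yl were under 4 in all arrays. The list's part in the spread of me31B was not tested.

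In the 6 lists, 19 of 73 other genes were higher and 9 lower in Tim-Dcr INPUT, with a median of 0.17, where the shares of all tested probe sets were 32.3% and 17.0%. In IP 16 were higher and 3 lower, where those shares were 27% and 17.0%. On centred arrays the counts were 43 and 2 in INPUT, with shares of 63.9% and 13.2% over all probe sets, and 47 and 1 in IP, with shares of 59.5% and 11.9%. The RNA-binding protein gene BicC was at -2.84 in INPUT (SE 0.65, limma adjusted p 0.00184) and at -2.22 in IP. bol, a meiotic translation regulator of the male germ line, was at -1.52 in INPUT (SE 0.19, limma adjusted p 1.05e-05). The exosome helicase tst was higher in both, at 0.72 and 0.96. In IP minus INPUT 4 of 73 were higher and none lower in Tim-Dcr by limma, where 0.789% of all tested probe sets were called higher. They were bol at 1.29 (adjusted p 0.0227), Tob, an adaptor of deadenylation, at 1.17 (0.0168), mei-P26, a germ line translation regulator, at 1.11 (0.0389), and Syp, an RNA-binding protein, at 0.86 (0.0372), the last named after its value was seen. On centred arrays bol and Tob were called. The numbers of all probe sets called on that scale are given below with the alternative settings.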

How the data were processed

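Total RNA of head extracts and AGO1 precipitates was labelled with biotin and hybridised to 1 array per sample. The values deposited by the authors are log2 expression values from GCRMA, as the submitters' processing notes name it. Its version, and whether all arrays were normalized as 1 set, is not given in the sources used here. Array means were near equal within a fraction and differed between fractions. Groups and wild-type replicate numbers came from sample titles, while Tim-Dcr titles carry no number and those arrays were not paired; the description of wild-type IP replicate 1 at ZT3 names another time than its title, which was followed. The design text calls wild-type replicates biological. Control probe sets (183 of 18952) were removed. Of the rest, 13647 had 1 gene symbol, 402 several and 4720 none, and all 9 member genes matched the RefSeq gene table. No 2 arrays were identical (highest correlation 0.996). The number of arrays limits the precision.

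limma 3.58.1 in R 4.3.3 was run with eBayes on probe sets above 4 in at least 3 arrays (15517 for wild type, 15835 with Tim-Dcr), with Benjamini-Hochberg adjustment over all of them at 0.05. IP minus INPUT was the mean over 6 times, from 12 fraction-by-time means on centred arrays; rhythm was a 24 h harmonic per fraction; Tim-Dcr was fitted as 1 offset for each fraction, relative to wild type at ZT3 and ZT15, over 27 arrays. Marker relations used permutations. Each main fit except that of IP minus INPUT between the 6 times was tested on simulated data. In these data 2-fold changes were recovered in 98% for IP minus INPUT, 69% for Tim-Dcr INPUT, 75% for Tim-Dcr IP and 52% for the Tim-Dcr difference of enrichment. Same-numbered wild-type INPUT and IP arrays deviated together at each of 5 times (correlations across probe sets 0.381 to 0.664). Between different times the correlations ran from -0.262 to 0.405 with a median of 0.0753, so the ranges overlapped. The main fits had no pairing block. Fits with the replicate block, which take the numbers to pair the samples, were run as alternatives. Other alternatives were centring, quantile normalization, filters, times and single arrays left out. The members, gene lists and rules for named genes were chosen with earlier results of these data known. The text names every member, up to 4 genes of each list by size of enrichment, 2 by rhythm and 2 by Tim-Dcr difference, and the 5 genes nearest to bel. Python 3.11.15 with pandas 2.3.3, scipy 1.17.1 and matplotlib 3.10.9 made the tables and figures. Files name no genome build and no sequence table was used, so no coordinates or sequences are given.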

Additional observations from a re-analysis of the deposited data

Results flagged for a closer look

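For bel the gap between IP and INPUT was smaller in Tim-Dcr by 1.01 on the log2 scale (SE 0.23), with the same sign at both times. The value rests on 4 Tim-Dcr arrays, and its wild-type side is the low value for which bel was chosen, so no p is given. Across single arrays left out it stayed between 0.90 and 1.14.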

How the results depend on the processing

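Of 2460 member results under single alternatives, 2374 kept their side of the threshold and, for results with a sign, their direction. Of the others, 47 changed sign, 20 became called and 19 were no longer called. Peak times of the rhythm fits were not compared, and the cause of the changes was not tested. As deposited, IP minus INPUT gave 563 probe sets higher and 14443 lower. pAbp was called lower in IP when arrays were quantile normalized together (-0.31), centred over tested probe sets (-0.22, chosen after seeing the data), without ZT3 (-0.23) and with the replicate block (-0.19). Requiring a log2 value above 6 gave 0 probe sets differing between times and 2111 higher in Tim-Dcr IP. A test of any difference between times gave 46 rhythmic probe sets in INPUT, 75 in IP and 1 for their difference; IP arrays alone gave 53, and the replicate block gave 1 for the difference. Centring gave 10116 probe sets and 5 members higher in Tim-Dcr INPUT, 9419 and 8 in IP, and 59 probe sets higher, 95 lower and 0 members in the difference of enrichment. Arrays of ZT3 and ZT15 alone gave 3299 higher in INPUT, 2328 in IP, and 1 higher, 0 lower and 0 members in the difference. The replicate block, with wild-type pairs only, raised that difference to 208 higher and 512 lower, with bel at 1.02; the block changed no call of a member but that of pAbp. Quantile normalization within fractions, chosen after seeing the data, gave 6 members higher in IP. The share of all probe sets called higher under that setting is not given here, so the count is not read as a trait of the members.

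The following uncalled values changed sign. Centred, Tim-Dcr INPUT was 0.34 for pAbp and for Fmr1 1632612_s_at, and Tim-Dcr IP was 0.34 for me31B and 0.33 for Rm62 (the last called). Quantile normalized, INPUT was -0.0122 for me31B and 0.12 for Fmr1 1632612_s_at, IP was 0.0549 for me31B, and the difference of enrichment was 0.0671 for me31B, 0.0289 for Ge-1 and 0.0283 for Fmr1 1634028_s_at.

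Leaving out single arrays gave ranges. Probe sets differing between times numbered 1 to 2 and rhythmic ones in INPUT 46 to 115. Tim-Dcr INPUT gave 1948 to 5361 higher, with 1 to 2 members; Tim-Dcr IP gave 1383 to 4922 higher and 1638 to 2815 lower, with 1 to 3 members higher; the difference gave 9 to 255 higher, 2 to 696 lower and 0 to 1 member. IP minus INPUT of Fmr1 1634028_s_at ran from -0.0465 to 0.0375 (the lowest without the ZT7 replicate 2 arrays of both fractions, chosen after seeing the data). Tim-Dcr INPUT ran from -0.16 to 0.27 for me31B, -0.0396 to 0.27 for DCP1, -0.01 to 0.13 for Pop2, -0.0659 to 0.0231 for pAbp and -0.33 to 0.22 for Fmr1 1632612_s_at. Tim-Dcr IP ran from -0.0363 to 0.0203 for me31B, -0.0573 to 0.17 for bel and -0.11 to 0.0731 for Rm62. The difference of enrichment ran from -0.28 to 0.15 for me31B, -0.10 to 0.24 for DCP1, -0.38 to 0.76 for twin and -0.16 to 0.0234 for Fmr1 1634028_s_at.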
